A study of Coturnix japonica with 19 samples.

Results

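Bone collagen RNA divided the 9 pituitary libraries from juvenile Japanese quail into 4 bone-rich and 5 bone-poor libraries. The members were chosen by a measured value. Counts were summed per gene symbol, and COL1A1, which encodes the alpha-1 chain of type I collagen, was expressed as CPM, the counts per 1000000 counts of the library total. The 4 libraries with the highest COL1A1 formed the bone-rich set and the other 5 the bone-poor set, out of 19 libraries in all. The bone-rich set held 8L replicates 1 and 5 and 16L replicates 1 and 2. The bone-poor set held 8L replicates 4, 3 and 2 and 16L replicates 4 and 3. Because COL1A1 of the same libraries made the split, every difference between these sets is given as a description without a test.

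Polyadenylated RNA of the pituitary was read by Oxford Nanopore cDNA sequencing. Juveniles were hatchlings of both sexes kept for 5 days on long days and then for 5 days on either 16 h light and 8 h dark (16L, n = 4) or 8 h light and 16 h dark (8L, n = 5), and were killed on day 10 after hatching. The other 10 libraries came from adult males moved to short days and collected after 8 weeks on 8L (n = 5), or moved back to long days and collected after 8 weeks on 16L (n = 5). Every bird had started on long days, and no group carried a transgene or received a drug. Glands were lifted from the sella turcica, with the stalk cut so that the pars tuberalis remained with the brain. Whether any neighbouring tissue came along is not given in the sources used here.

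The sella turcica is the bony pocket of the skull base in which the pituitary lies. In a young bird this bone is still growing: osteoblasts lay down type I collagen and mineral-binding proteins, osteocytes stay embedded in it, osteoclasts resorb it, and chondrocytes make the cartilage that bone replaces. The anterior pituitary is instead made of secretory cells named for their hormones: somatotrophs (growth hormone), lactotrophs (prolactin), corticotrophs and melanotrophs (POMC peptides), thyrotrophs and gonadotrophs.

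In order of COL1A1, the bone-rich libraries (8L replicate 1, 8L replicate 5, 16L replicate 1 and 16L replicate 2) had 3776, 2514, 1975 and 1164 CPM of the library total. The bone-poor libraries (8L replicate 4, 8L replicate 3, 16L replicate 4, 16L replicate 3 and 8L replicate 2) had 651, 174, 68.3, 55.3 and 36.3 CPM of the library total. The means were 2360 ± 1100 CPM (SD, n = 4) in the bone-rich set and 197 ± 259 CPM (SD, n = 5) in the bone-poor set. The members nearest the threshold were 16L replicate 2 inside it, at 1164 CPM from 106 counts, and 8L replicate 4 outside it, at 651 CPM from 59 counts. The levels ran down without a wide gap at the threshold, so the sets are the ends of a range. All 9 juvenile libraries lay above the 10 adult libraries, which had 0 to 3.20 CPM of the library total from 0 to 8 counts. Values below follow these same orders of libraries, and unless said otherwise are CPM scaled by TMM, a factor that corrects for the makeup of each library.

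**Figure D1:**
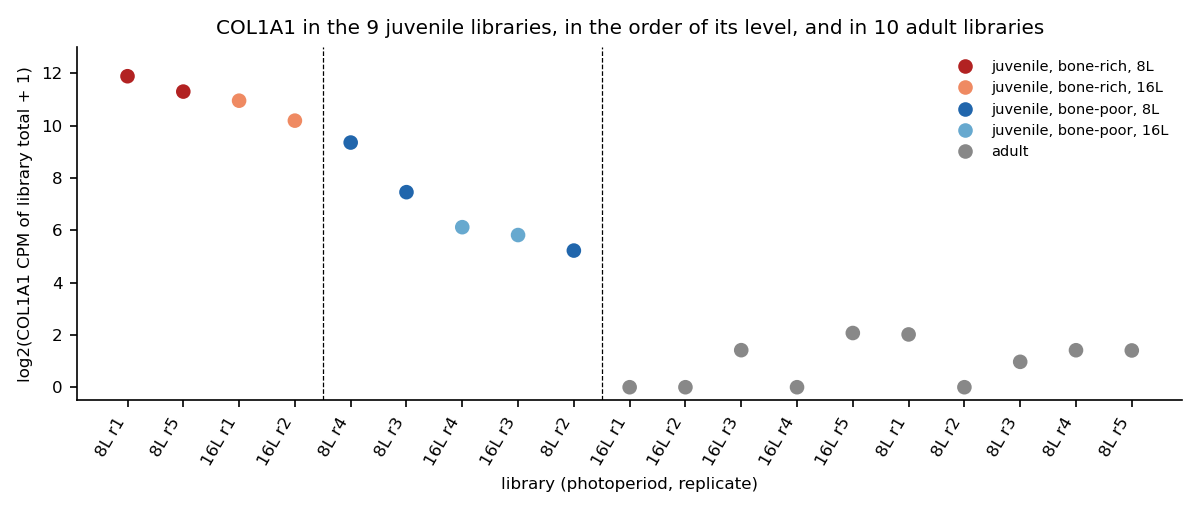
COL1A1 in each library, as log2(CPM of the library total + 1) on the vertical axis, for the 4 bone-rich juveniles, the 5 bone-poor juveniles and the 10 adults; dashed lines separate the sets and each point is a library. Juveniles run down from 3776 to 36.3 CPM, and the adults lie at 3.20 CPM or less.

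Several other features of the libraries varied, with overlap between the sets. Total counts were 408050, 684981, 196965 and 91030 in the bone-rich libraries, against 90599, 183695, 234166, 542633 and 1074139 in the bone-poor libraries and 128509 to 4796665 in adults, so that a single count was worth between 0.908 and 8.61 scaled CPM in a juvenile library. Groups of gene symbols with near-identical counts in every library took 29.9% to 58.6% of counts in the bone-rich set and 17.4% to 47.5% in the bone-poor set, highest in 8L replicates 1 and 5. HINTW, a W-linked gene that marks female birds, had 0 counts in each bone-rich library, against 0, 0, 67, 120 and 307 counts in the bone-poor libraries. The part that depth, these repeated sequences or sex had in the differences below was not tested. In RNA from whole tissue, fewer cells of a type and less RNA per cell cannot be told apart.

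The tissue labels were checked against marker lists. Pituitary hormone genes were present in all 9 juvenile libraries, but the bone-rich set was not uniform. The summed level of the hormone list was 2273, 7430, 49890 and 85910 CPM in the bone-rich libraries, against 27980, 25680, 49480, 57020 and 51570 CPM in the bone-poor libraries and 12280 to 63070 CPM in adults. COL1A1, which chose the libraries, was left out of the osteoblast and osteocyte list here and below. The summed level of its other genes was 9858, 10530, 3003 and 1490 CPM in the bone-rich libraries, against 538, 320.4, 114, 239 and 197 CPM in the bone-poor libraries and 67.5 to 145 CPM in adults. In 8L replicates 1 and 5 the bone list was at its highest and the hormone list at its lowest of all 19 libraries, and hormone RNA was below bone RNA, with hormone-to-bone ratios of 0.231 and 0.705. In 16L replicates 1 and 2 the ratios were 16.6 and 57.6, against 52.1, 80.1, 434, 239 and 262 in the bone-poor libraries. By these sums 8L replicates 1 and 5 stood apart from their label as pituitary samples, and the differences are given below with and without them. The hormone sums of the bone-rich 16L libraries were mostly growth hormone (GH), so the contrast with them rested mainly on that gene. Most other hormone genes over the filter were lower in the bone-rich 16L libraries too than in any bone-poor library.

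Across 8363 genes with at least 20 counts over the 9 juvenile libraries, 123 (1.47%) were higher in every bone-rich than in every bone-poor library and 90 (1.08%) were lower. Scaling changed this balance. With CPM of the library total the counts were 76 higher and 175 lower, with the repeated families left out 111 and 111, and with the other tissue lists left out of the totals 79 and 167. The median log2 difference over all genes was -0.10 with TMM and -0.36 with library totals. The 22 lists of tissues and functions described below hold 411 genes, and only those over the filter could be counted. Of the listed genes, 26 were among those higher without overlap, COL1A1 included, and 4 among those lower. The shares over all 8363 genes stand beside the counts below as background. Nothing is read from them, since the split used the same libraries.

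Genes of osteoblasts and osteocytes went along with COL1A1, from matrix proteins to enzymes of mineralisation, and most in 8L replicates 1 and 5. Of the 27 listed genes other than COL1A1, 18 passed the filter, 9 were higher without overlap, none was lower, and the median log2 difference was 3.69, against -0.10 over all genes. COL1A2, the partner chain of type I collagen, had 3893, 3532, 1116 and 551 CPM in the bone-rich libraries, against 249.9, 71.7, 29.4, 61.8 and 38.1 CPM in the bone-poor libraries. SPP1, which encodes osteopontin, had 3302, 3570, 949 and 499.6 CPM in the bone-rich libraries, against 75.7, 50.6, 11.03, 26.9 and 12.7 CPM in the bone-poor libraries. For both genes the lowest bone-rich library, 16L replicate 2, lay above the highest bone-poor library, 8L replicate 4. IBSP, which encodes bone sialoprotein, had 554, 673, 91.9 and 77.5 CPM in the bone-rich libraries, against 45.4, 12.7, 3.68, 0 and 0 CPM in the bone-poor libraries. BGLAP, which encodes osteocalcin, had 54.7, 142, 142 and 34.5 CPM in the bone-rich libraries, against 15.1, 21.1, 0, 2.69 and 0.907 CPM in the bone-poor libraries, with its highest values in 8L replicate 5 and 16L replicate 1.

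Osteocyte genes and matrix enzymes showed the same division. DMP1, a matrix protein of osteocytes, had 99.1, 142, 54.3 and 17.2 CPM in the bone-rich libraries, against 7.57, 4.22, 0, 0 and 0 CPM in the bone-poor libraries. PHEX, an osteocyte and osteoblast peptidase that affects phosphate balance, had 314, 556, 83.6 and 68.9 CPM in the bone-rich libraries, against 0, 0, 0, 10.7 and 9.98 CPM in the bone-poor libraries. MMP13, a collagenase of bone and cartilage, had 366, 503, 66.9 and 60.3 CPM in the bone-rich libraries, against 15.1, 8.43, 0, 2.69 and 0 CPM in the bone-poor libraries. None of these overlapped between the sets, and the same held for PHOSPHO1, a phosphatase of early mineralisation, and IFITM5, a membrane protein of osteoblasts, whose log2 differences were 4.85 and 3.74. For DMP1 this rested on few counts in 16L replicate 2, where a single count was worth 8.61 CPM. RUNX2, a transcription factor that osteoblasts need, had 291, 312, 83.6 and 8.61 CPM in the bone-rich libraries, against 15.1, 8.43, 3.68, 0 and 13.6 CPM in the bone-poor libraries. It was highest in the bone-rich 8L libraries and overlapped through 16L replicate 2. SP7, the osteoblast factor osterix, had only 2 counts over all juveniles and ALPL, alkaline phosphatase, had 20.

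Osteoclast genes were higher in the same libraries. The list had 16 genes, of which 11 passed the filter, 3 were higher without overlap and none lower, with a median log2 difference of 2.74. SLC37A2, a sugar phosphate transporter of the osteoclast lysosome, had 205, 190.4, 41.8 and 241 CPM in the bone-rich libraries, against 0, 0, 0, 0 and 0 CPM in the bone-poor libraries. No bone-poor library had a count, and against 3 counts over the bone-poor set it was at least 117-fold higher in the bone-rich set. It passed the filter through the bone-rich set alone, and 27 of 8363 genes had no count in the bone-poor set. CTSK, the collagen-cutting protease cathepsin K, had 161, 249, 41.8 and 43.1 CPM in the bone-rich libraries, against 22.7, 4.22, 3.68, 2.69 and 0 CPM in the bone-poor libraries. ACP5, tartrate-resistant acid phosphatase, had 99.1, 149.8, 66.9 and 17.2 CPM in the bone-rich libraries, against 15.1, 4.22, 7.36, 0 and 0.907 CPM in the bone-poor libraries. A single count was worth 8.61 CPM in 16L replicate 2 and 7.57 CPM in bone-poor 8L replicate 4. The lack of overlap in ACP5, 17.2 against 15.1 CPM, was therefore within counting error. CA2, carbonic anhydrase 2, which red cells and other cells also make, had 113, 289.5, 66.9 and 17.2 CPM in the bone-rich libraries, against 83.3, 21.1, 36.8, 45.6 and 44.5 CPM in the bone-poor libraries and overlapped.

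Cartilage genes belonged mostly to the bone-rich 8L libraries. Of 26 listed genes 14 passed the filter, and only 2 were higher without overlap. COL11A1, a fibrillar collagen of cartilage and young bone, had 2437, 1361, 229.8 and 336 CPM in the bone-rich libraries, against 106, 46.4, 11.03, 61.8 and 40.8 CPM in the bone-poor libraries. COL10A1, the collagen of hypertrophic chondrocytes, had 612, 269, 16.7 and 17.2 CPM in the bone-rich libraries, against 0, 8.43, 0, 10.7 and 16.3 CPM in the bone-poor libraries. In COL10A1 the bone-rich 16L libraries lay just above bone-poor 8L replicate 2. COL2A1, the main cartilage collagen, had 529.8, 58.4, 0 and 0 CPM in the bone-rich libraries, against 0, 4.22, 0, 0 and 0 CPM in the bone-poor libraries. ACAN, which encodes aggrecan, had 718, 86.3, 0 and 8.61 CPM in the bone-rich libraries, against 0, 12.7, 0, 2.69 and 0 CPM in the bone-poor libraries, and HAPLN1, the link protein that ties aggrecan to hyaluronan, had 1145, 551, 0 and 0 CPM in the bone-rich libraries, against 7.57, 50.6, 0, 0 and 10.9 CPM in the bone-poor libraries. These last 3 were high in 8L replicates 1 and 5, most in replicate 1, while both bone-rich 16L libraries had 0 to 8.61 CPM, within the bone-poor range. The median log2 difference of the list from the bone-poor set was 4.50 in the bone-rich 8L libraries and -0.12 in the bone-rich 16L libraries, against 4.20 and 2.70 for the osteoblast and osteocyte list. SOX5 and SOX6, factors that chondrocytes share with other tissues, overlapped widely, as did FGFR3.

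**Figure D2:**
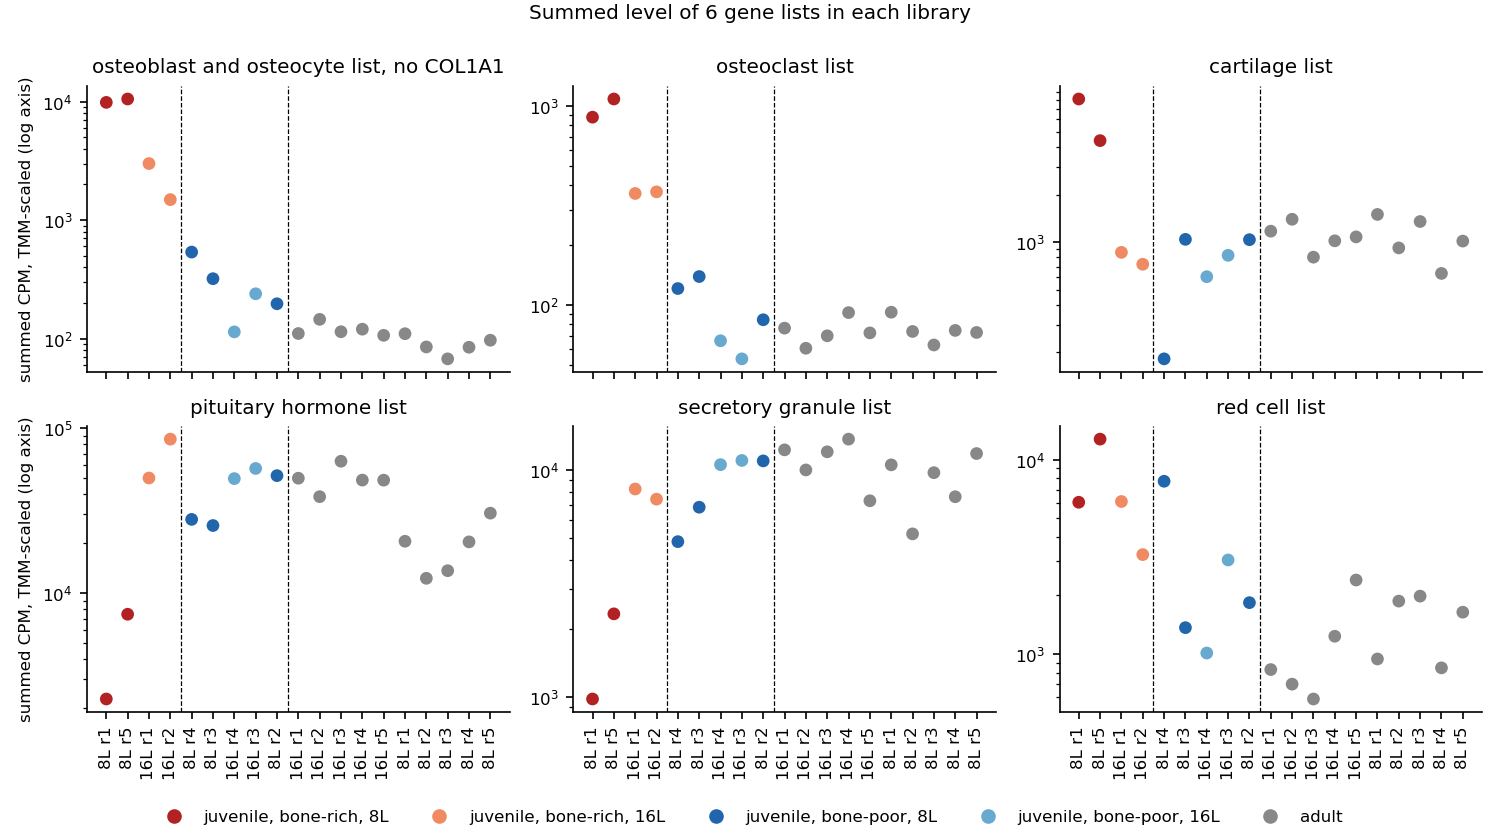
Summed TMM-scaled CPM of 6 gene lists, on log axes, in each juvenile and adult library; each point is a library, COL1A1 is left out, and dashed lines separate bone-rich juveniles, bone-poor juveniles and adults. Bone and osteoclast sums are higher in each bone-rich than in each bone-poor library, the cartilage sum is high only in 8L replicates 1 and 5, at 8088 and 4403 CPM, and the hormone sum is low in those same libraries but 49890 and 85910 CPM in the bone-rich 16L libraries. Most of the hormone sum in the bone-rich 16L libraries is GH.

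Connective tissue genes followed, with 24 of 32 over the filter, 7 higher without overlap, none lower and a median log2 difference of 2.97. COL12A1, a collagen that sits on the surface of collagen fibrils, had 653, 427, 213 and 121 CPM in the bone-rich libraries, against 7.57, 0, 0, 2.69 and 0 CPM in the bone-poor libraries. TNC, the matrix protein tenascin-C, had 697, 625, 255 and 0 CPM in the bone-rich libraries, against 0, 0, 0, 2.69 and 0 CPM in the bone-poor libraries and was absent from 16L replicate 2. POSTN, which encodes periostin, had 1118, 901, 159 and 34.5 CPM in the bone-rich libraries, against 0, 63.2, 3.68, 0 and 63.5 CPM in the bone-poor libraries. COL3A1, the collagen of loose connective tissue and vessels, had 1282, 3144, 581 and 302 CPM in the bone-rich libraries, against 371, 535, 743, 419 and 309.5 CPM in the bone-poor libraries, so that 16L replicate 2 fell below every bone-poor library. The others that did not overlap were COL5A1, COL5A2, PDGFRA, THY1, PRRX1 and TGFBI, with log2 differences of 2.96 to 4.19.

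The machinery that folds, modifies and crosslinks collagen moved less. Of 26 listed genes 14 passed the filter and 2 were higher without overlap: LOX, a collagen crosslinking oxidase, with a log2 difference of 4.06, and KDELR2, a retrieval receptor of the secretory pathway, with 1.44. SERPINH1, the collagen chaperone, had 714, 576, 192 and 112 CPM in the bone-rich libraries, against 129, 25.3, 55.2, 72.5 and 36.3 CPM in the bone-poor libraries, an overlap with 8L replicate 4 only. The list's median log2 difference was 1.74 in the bone-rich 8L libraries and -0.15 in the bone-rich 16L libraries. Signalling genes of the BMP, WNT, FGF and IGF pathways, which act in skeletal growth and in many other tissues, had 16 of 36 members over the filter, a median of 1.28 and, on the higher side, FGFR1 and BMPR2 without overlap. FGFR1 had 249.5, 330.1, 129.5 and 258 CPM in the bone-rich libraries, against 53.0, 0, 55.2, 102 and 54.5 CPM in the bone-poor libraries.

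Pituitary hormone genes went against bone, with growth hormone as the exception. Of 7 listed genes 5 passed the filter, 3 were lower without overlap (POMC, CGA and TSHB), none was higher, and the median log2 difference was -2.05 under TMM and -2.07 with library totals. POMC had 85.5, 1882, 1563 and 94.8 CPM in the bone-rich libraries, against 4005, 3204, 11210, 12890 and 3210 CPM in the bone-poor libraries. CGA, the alpha subunit shared by the glycoprotein hormones, had 92.3, 1021, 2340 and 922 CPM in the bone-rich libraries, against 3907, 3234, 4219, 5254 and 5996 CPM in the bone-poor libraries. TSHB, the beta subunit of thyroid-stimulating hormone, had 0, 30.5, 50.1 and 0 CPM in the bone-rich libraries, against 75.7, 67.5, 51.5, 113 and 189 CPM in the bone-poor libraries. Its margin was narrow, with 50.1 CPM in 16L replicate 1 just below 51.5 CPM in bone-poor 16L replicate 4. In POMC and TSHB the lowest values were those of 8L replicate 1 and 16L replicate 2, and in CGA those of 8L replicate 1, 16L replicate 2 and 8L replicate 5. PRL, prolactin, had 99.1, 1473, 4066 and 370.4 CPM in the bone-rich libraries, against 4361, 3541, 8150, 6226 and 2182 CPM in the bone-poor libraries and overlapped through 16L replicate 1.

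GH, growth hormone, divided the bone-rich set. It had 1996, 3022, 41860 and 84520 CPM in the bone-rich libraries, against 15630, 15630, 25850, 32540 and 40000 CPM in the bone-poor libraries. The bone-rich 8L libraries had the lowest and the bone-rich 16L libraries the highest GH of the 9 juveniles, and both 16L values exceeded every bone-poor value. The bone-rich and bone-poor means were 32900 ± 39100 CPM (SD, n = 4) and 25900 ± 10700 CPM (SD, n = 5). Within the bone-rich set GH therefore differed between the libraries of unlike photoperiod, and with 2 libraries in each photoperiod its link to bone and to photoperiod cannot be told apart. In 16L replicate 2, GH stood at 84520 CPM beside 370.4 CPM of PRL and 94.8 CPM of POMC, while in the bone-poor libraries PRL ranged from 2182 to 8150 CPM and POMC from 3204 to 12890 CPM.

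**Figure D3:**
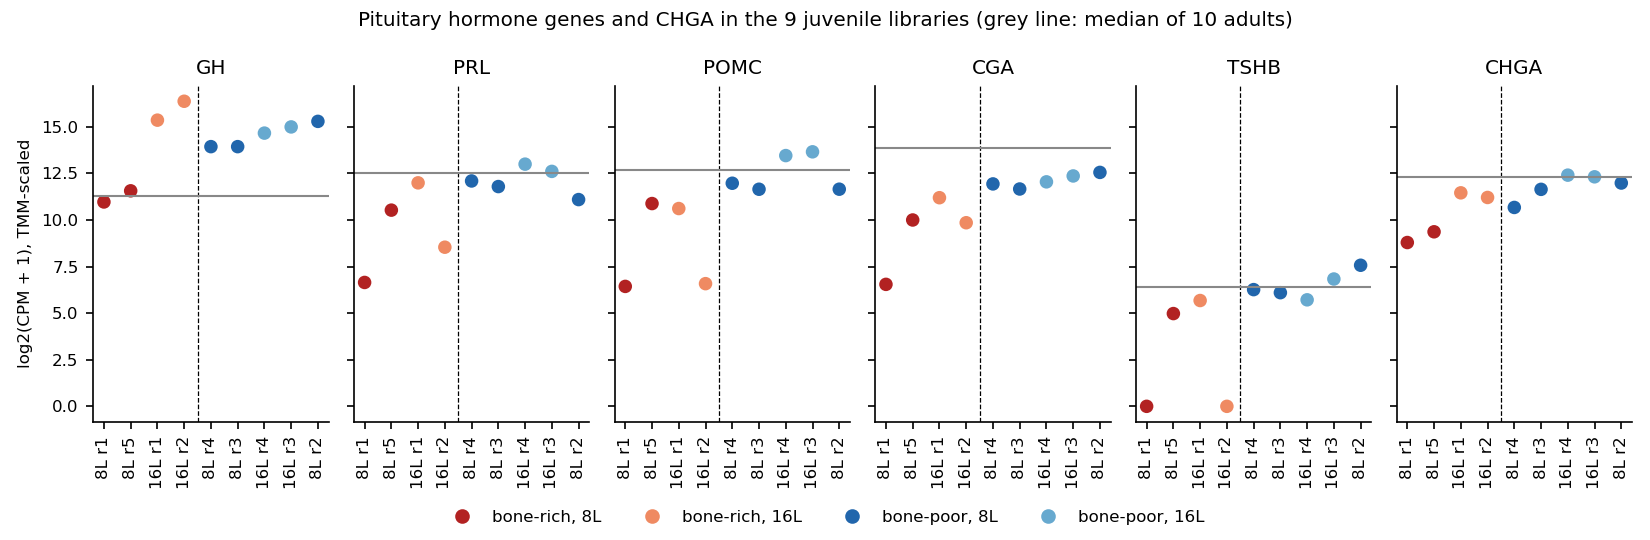
Level of 5 hormone genes and of CHGA, as log2(TMM-scaled CPM + 1), in the 9 juvenile libraries; each point is a library, the dashed line separates bone-rich from bone-poor and the grey line is the median of 10 adults. POMC, CGA and, by a narrow margin, TSHB are lower in each bone-rich library, while GH is lowest in 8L replicates 1 and 5 and highest in 16L replicates 1 and 2.

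Most listed receptors over the filter were, like GH, higher in the bone-rich 16L than in the bone-rich 8L libraries, those that act on somatotrophs among them. GHRHR, the receptor for growth hormone-releasing hormone, had 37.6, 22.9, 827 and 680.5 CPM in the bone-rich libraries, against 106, 228, 151, 234 and 876 CPM in the bone-poor libraries. THRB, a thyroid hormone receptor, had 51.3, 180.3, 330.1 and 1060 CPM in the bone-rich libraries, against 7.57, 295, 191, 405 and 494 CPM in the bone-poor libraries, and SSTR2, a somatostatin receptor, had 3.42, 2.54, 41.8 and 68.9 CPM in the bone-rich libraries, against 7.57, 8.43, 36.8, 40.3 and 10.9 CPM in the bone-poor libraries. In all 3 genes both bone-rich 16L libraries lay above both bone-rich 8L libraries, as in 965 of 8363 genes (11.5%). The same held for 6 of 9 receptor genes over the filter (66.7%) and 8 of 14 secretory granule genes (57.1%), so it was not particular to these 3. SSTR2 was higher in each bone-rich 16L library than in any bone-poor library. In GHRHR both bone-rich 16L values lay inside the bone-poor range, and in THRB that of replicate 1 did. THRB in both bone-rich 8L libraries lay above bone-poor 8L replicate 4. VIPR1, a receptor for vasoactive intestinal peptide, had 0, 0, 8.36 and 0 CPM in the bone-rich libraries, against 15.1, 25.3, 22.1, 21.5 and 10.9 CPM in the bone-poor libraries and was the only one of 9 receptors over the filter (17 listed) that was lower without overlap. A single count was worth 4.18 CPM in 16L replicate 1, so the margin of VIPR1, 8.36 against 10.9 CPM, was within counting error. The receptor list's median log2 difference was -2.45 in the bone-rich 8L libraries and -0.29 in the bone-rich 16L libraries.

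Transcription factors of the pituitary lineages were lower on average but overlapped. Of 20 listed genes 10 passed the filter, none was without overlap, and the median log2 difference was -0.97. POU1F1, the factor of somatotrophs, lactotrophs and thyrotrophs, had 23.9, 43.2, 234 and 241 CPM in the bone-rich libraries, against 90.8, 346, 228, 274 and 505 CPM in the bone-poor libraries. PITX1, which acts across pituitary lineages, had 0, 17.8, 12.5 and 51.7 CPM in the bone-rich libraries, against 68.1, 46.4, 125, 150.4 and 58.1 CPM in the bone-poor libraries. POU1F1 was lowest in 8L replicates 1 and 5, with the bone-rich 16L libraries inside the bone-poor range, while PITX1 was lowest in 8L replicates 1 and 5 and 16L replicate 1 and overlapped through 16L replicate 2. GATA2, a factor of thyrotrophs and gonadotrophs that blood and endothelial cells also use, ran the other way inside the bone-rich set, with 85.5, 129.5, 12.5 and 0 CPM in the bone-rich libraries, against 182, 114, 58.9, 75.2 and 61.7 CPM in the bone-poor libraries.

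Genes of the secretory granule gave the same division. Of 17 listed genes 14 passed the filter, none was without overlap, and the median log2 difference was -2.08 in the bone-rich 8L libraries and -0.40 in the bone-rich 16L libraries. CHGA, the granule protein chromogranin A, had 441, 658, 2804 and 2360 CPM in the bone-rich libraries, against 1628, 3192, 5414, 5088 and 4037 CPM in the bone-poor libraries. CHGB, its relative chromogranin B, had 239, 937, 3222 and 3368 CPM in the bone-rich libraries, against 2181, 1235, 3376, 3625 and 3308 CPM in the bone-poor libraries. In the bone-rich 8L libraries both were below every other juvenile library, and in the bone-rich 16L libraries both lay inside the bone-poor range. CPE, which trims peptide hormones, had 44.4, 43.2, 62.7 and 77.5 CPM in the bone-rich libraries, against 75.7, 37.9, 110.3, 177 and 131 CPM in the bone-poor libraries.

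Other tissues that could enter the sample were checked with their own lists. Red cell genes had 6 of 20 members over the filter and none without overlap. The summed level was 6026, 12740, 6080 and 3239 CPM in the bone-rich libraries, against 7730, 1362, 1008, 3039 and 1832 CPM in the bone-poor libraries, so that bone-poor 8L replicate 4 was the second highest. HBE1, an early-stage hemoglobin chain, had 325, 391, 330.1 and 129 CPM in the bone-rich libraries, against 507, 33.7, 22.1, 69.8 and 127 CPM in the bone-poor libraries. Leukocyte and marrow genes had 8 of 28 over the filter and summed to 277, 254, 50.1 and 68.9 CPM in the bone-rich libraries, against 144, 29.5, 22.1, 18.8 and 114 CPM in the bone-poor libraries and 5.67 to 2295 CPM in adults. PTPRC (CD45), a surface protein of nearly all leukocytes, had 92.3, 50.8, 0 and 8.61 CPM in the bone-rich libraries, against 0, 4.22, 0, 0 and 0.907 CPM in the bone-poor libraries, and CSF1R, the receptor of macrophages and osteoclast precursors, was counted in 8L replicates 1 and 5 and in no other juvenile library.

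Among glial genes, MBP was high in the bone-rich libraries and also in bone-poor 8L replicate 4, while the list as a whole was divided. MBP, myelin basic protein, had 451, 576, 176 and 181 CPM in the bone-rich libraries, against 651, 46.4, 44.1, 8.05 and 145 CPM in the bone-poor libraries, with its highest value in bone-poor 8L replicate 4. The glial list summed to 588, 909, 280.0 and 249.8 CPM in the bone-rich libraries, against 939, 164, 154, 124 and 222 CPM in the bone-poor libraries. MBP made up most of this sum in each bone-rich library. In MBP and in the sum each bone-rich library lay above the bone-poor libraries other than 8L replicate 4. The median log2 difference of the 6 of 11 glial genes over the filter was -0.44, with 3 positive and 3 negative. Neuronal genes, many of which endocrine cells also express, had 6 of 13 members over the filter, a median log2 difference of -1.09 and none without overlap. Lists of endothelial cells (6 of 15 genes over the filter), mural cells (4 of 10) and regulators of osteoclast formation (4 of 8) had medians of 0.48, 0.45 and 0.22, which turned to -0.17, -0.19 and -0.28 with library totals, and none of their genes was without overlap. Skeletal muscle genes (2 of 20 over the filter) summed to 116 to 456.5 CPM in the bone-rich libraries and 18.4 to 911 CPM in the bone-poor libraries, and keratinocyte and adipocyte lists had 2 and 1 genes over the filter. The part of these tissues in the differences between the sets was not tested.

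Cell cycle genes overlapped, while most ribosomal protein genes were slightly higher in the bone-rich set. Of 30 cell cycle genes, 20 passed the filter, none was without overlap and the median log2 difference was -0.27. Of 67 cytoplasmic ribosomal protein genes, 66 passed the filter, 60 had a positive log2 difference (3798 of 8363 over all genes), and 2 were higher without overlap. Their median was 0.48 with TMM and 0.10 with library totals, and it was 0.82 in the bone-rich 8L libraries and -0.07 in the bone-rich 16L libraries. RPS6 had 872, 1285, 577 and 577 CPM in the bone-rich libraries, against 560.3, 468, 357, 387 and 254 CPM in the bone-poor libraries. Immediate early and stress genes, which respond to handling of tissue, had 6 of 16 over the filter, none without overlap, and a median of -0.22.

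**Figure D4:**
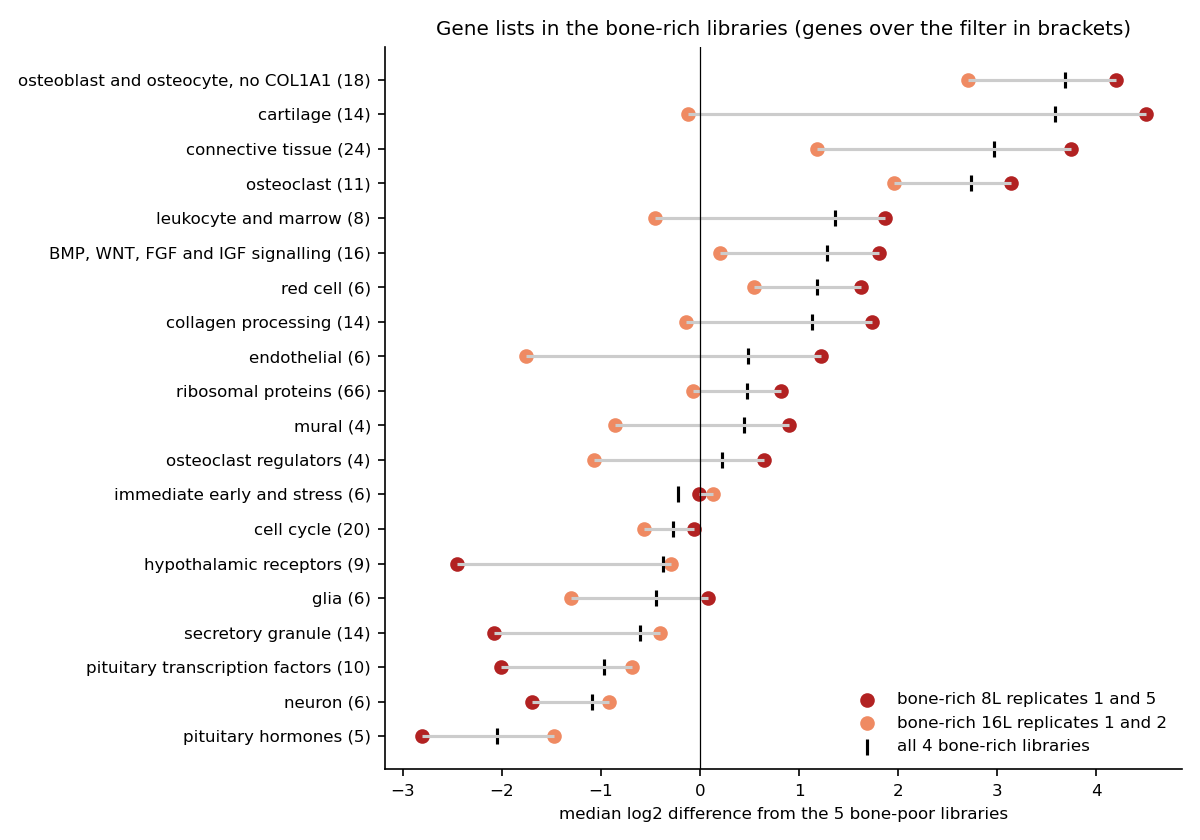
Median log2 difference of each gene list from the 5 bone-poor libraries (horizontal axis), for bone-rich 8L replicates 1 and 5, for bone-rich 16L replicates 1 and 2 and for all 4 (black tick); the number of genes over the filter is in brackets and COL1A1 is left out. Osteoblast and osteoclast lists are positive in both pairs, whereas the cartilage median is 4.50 in the 8L libraries and -0.12 in the 16L libraries, and hormone lists are negative in both.

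The 2 kinds of bone-rich library were also compared with the bone-poor set one kind at a time. For 8L replicates 1 and 5 alone, 996 of 8363 genes (11.9%) were higher without overlap and 344 (4.11%) were lower. For 16L replicates 1 and 2 alone, 324 genes (3.87%) were higher and 456 (5.45%) lower. The values of each pair are given with TMM only. Its factors were 0.717 and 0.575 in the 8L libraries and 1.21 and 1.28 in the 16L libraries, so scaling raised the 8L values relative to the 16L values. In the osteoblast and osteocyte list, 17 of 18 genes were higher without overlap in the 8L libraries and 9 of 18 in the 16L libraries. In the cartilage list the counts were 10 and 2 of 14, in the connective tissue list 18 and 8 of 24, and in the osteoclast list 8 and 4 of 11. All 5 hormone genes over the filter were lower in the 8L libraries, while in the 16L libraries 3 were lower and GH was higher. Without 8L replicates 1 and 5, the median log2 difference was 2.70 for osteoblast and osteocyte genes, 1.96 for osteoclast genes, 1.18 for connective tissue genes, -0.12 for cartilage genes and -1.47 for hormone genes, against -0.44 over all genes.

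Genes were next ranked without regard to the lists. Among annotated symbols without overlap, the 12 with the largest log2 difference on the higher side included 9 of the bone, cartilage and connective tissue lists, and the others were PDPN, WISP1 and FAP. Of the 8363 genes, 19 were in the osteoblast and osteocyte list, COL1A1 included, 11 in the osteoclast, 14 in the cartilage and 24 in the connective tissue list. The lists were chosen with earlier results of these data known, and COL1A1 made the split. The count of 9 is therefore a description and no independent support. PDPN, podoplanin, which marks osteocytes and lymphatic vessels, had 222, 147, 50.1 and 8.61 CPM in the bone-rich libraries, against 0, 0, 3.68, 2.69 and 0 CPM in the bone-poor libraries. Its 8.61 CPM in 16L replicate 2 and 3.68 CPM in 16L replicate 4 were each the worth of 1 count. FAP, fibroblast activation protein, had 150.4, 157, 25.1 and 68.9 CPM in the bone-rich libraries, against 0, 4.22, 0, 5.37 and 0.907 CPM in the bone-poor libraries. On the lower side, 9 of the 12 genes had no count in any bone-rich library, and the 12 genes had 31 to 234 counts each over the bone-poor set. Those 9 passed the filter through the bone-poor set alone. Over all 8363 genes, 177 had no count in the bone-rich set and 27 had none in the bone-poor set. PER3, a clock gene, had 0, 0, 0 and 0 CPM in the bone-rich libraries, against 15.1, 50.6, 3.68, 174 and 63.5 CPM in the bone-poor libraries. Against 3 counts over the bone-rich set, PER3 was at least 24.6-fold lower there. CNR1, the cannabinoid receptor of brain and pituitary, had 0, 0, 0 and 0 CPM in the bone-rich libraries, against 75.7, 29.5, 25.8, 29.5 and 31.8 CPM in the bone-poor libraries, at least 11.5-fold lower on the same scale. GAL, the neuropeptide galanin, had 0, 0, 0 and 0 CPM in the bone-rich libraries, against 53.0, 4.22, 29.4, 16.1 and 10.9 CPM in the bone-poor libraries. The lowest bone-poor values of PER3, 3.68 CPM, and of GAL, 4.22 CPM, were each the worth of 1 count.

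The closest followers of COL1A1 were ranked by Pearson's r on log2(CPM + 1) over the 9 juvenile libraries, among annotated symbols with a mean of at least 50 CPM. The points share library depth and makeup, so r is a description. The first 10 were COL1A2 (0.992), SPP1 (0.986), MMP13, CTSK, IBSP, COL12A1, COCH, SPARC, COL11A1 and RPS6 (0.933). COCH, an extracellular protein known from the inner ear, had 202, 185, 62.7 and 51.7 CPM in the bone-rich libraries, against 7.57, 16.9, 0, 0 and 0 CPM in the bone-poor libraries. At the other end, r ran from -0.908 to -0.840 for PCLO, GPX3, MAP2, PAIP1, RORA, WHSC1, CHGA, DYNC1I1, IFT43 and PEBP1. PCLO, a scaffold of secretory release sites, had 54.7, 81.3, 272 and 189.5 CPM in the bone-rich libraries, against 242, 666, 456, 510.1 and 511 CPM in the bone-poor libraries. MAP2, a microtubule protein of neurons that endocrine cells also express, had 1538, 1409, 3314 and 1723 CPM in the bone-rich libraries, against 2552, 4621, 5999, 9260 and 5902 CPM in the bone-poor libraries. RORA, a nuclear receptor with a role in the clock, had 20.5, 45.7, 25.1 and 34.5 CPM in the bone-rich libraries, against 60.6, 63.2, 143, 80.5 and 107 CPM in the bone-poor libraries and was the only one of these 10 that did not overlap.

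Whether bone genes followed the light treatment was asked of the labelled groups, 16L against 8L juveniles. COL1A1 differed by -0.92 on the log2(CPM + 1) scale, with overlap between groups, since each photoperiod had 2 bone-rich libraries (p = 0.619 in an exact permutation test, two-sided, where 0.00794 is the smallest value 4 against 5 libraries allow). COL1A1 of these libraries also made the split and was chosen with earlier results of these data known, so this p-value is not independent of these data. Without 8L replicates 1 and 5, the libraries with the most COL1A1, the difference was 1.16, given as a description. In edgeR's quasi-likelihood test 0 of 2405 genes (0.0%) passed an adjusted p of 0.05 in either direction. At an unadjusted p under 0.05 there were 41, and DESeq2 called 0. COL1A2 had a log2 fold change of -1.60 ± 1.43 (SE), SPP1 of -1.66 ± 1.65 and CTSK of -1.77 ± 1.53, and GH of 1.72 ± 0.85, each with an adjusted p of 0.999.

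Juveniles were then compared with adults, which had no part in the split. These p-values measure only the spread between the libraries of each group. The adults were males and the juveniles of both sexes, and the part of sex in this comparison was not tested. The lists, COL1A1 included, were chosen with earlier results of these data known, so calls of listed genes are not independent of these data. Genes of bone, red cells and dividing cells were higher in juveniles, as was GH, while FSHB was lower. COL1A1 was higher in juveniles by 7.78 on the log2(CPM + 1) scale, in 9 of 9 juveniles above all 10 adults (p = 1.08e-05, two-sided, in an exact permutation test that cannot give less). Across all genes, edgeR with photoperiod as a term called 82 of 7165 genes higher (1.14%) and 58 lower (0.809%). Without the 4 bone-rich libraries, among the genes over the filter in that smaller fit, the counts were 79 and 32. Of the osteoblast and osteocyte list, here with COL1A1, 11 of 16 tested genes were higher and none lower, of the osteoclast list 3 of 6, of the connective tissue list 9 of 20, of the cartilage list 2 of 8, of the red cell list 5 of 5 and of the cell cycle list 10 of 11.

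Some bone genes were called higher in juveniles also where the 4 bone-rich libraries were left out, at a smaller fold change. As those 4 were chosen for their COL1A1, all values of the fit without them are descriptions, calls and adjusted p-values included. This holds here and below. With 5 in place of 9 juveniles, a call can also be lost through the smaller set. The share of females changed too. All 4 libraries left out had 0 counts of HINTW, while bone-poor libraries with 67, 120 and 307 counts stayed. The part of sex in the change between the fits was not tested. The log2 fold change of COL1A1 was 9.76 with all 9 juveniles (edgeR adjusted p = 2.14e-05) and 6.48 with the 5 bone-poor juveniles, and it was 8.24 where only 8L replicates 1 and 5 were left out. For SPP1 the values were 10.34 (adjusted p = 4.84e-05) and 5.75 (adjusted p = 7.93e-05), and for COL1A2 7.05 (adjusted p = 7.28e-05) and 3.6 (adjusted p = 0.000259). Of the 10 osteoblast and osteocyte genes called other than COL1A1, 5 were tested in the smaller set and 3 were called there. PHEX had 4.23 (adjusted p = 0.038) and 0.37 (adjusted p = 0.923), and SPARC, a collagen-binding matrix protein, had 2.32 (adjusted p = 0.0107) and 0.69 (adjusted p = 0.798). Of the 2 cartilage genes called with all juveniles, COL10A1 and COL11A1, neither was called without the bone-rich libraries. COL11A1 had 3.4 (adjusted p = 0.0152) with them and 0.39 (adjusted p = 0.816) without. COL3A1, at 3.6 and 2.89, was the only one of 7 connective tissue genes tested in the smaller set that was still called.

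GH, FSHB and most cell cycle genes were called with and without the bone-rich libraries. GH had a log2 fold change of 3.28 (edgeR adjusted p = 0.000711) with all juveniles and 3.22 (adjusted p = 7.72e-05) without the bone-rich ones. FSHB, the beta subunit of follicle-stimulating hormone, had -4.55 (adjusted p = 0.00554) and -5.90 (adjusted p = 0.0249). PBK, a mitotic kinase, had 5.27 and 5.33, and TOP2A, a topoisomerase of dividing cells, had 3.97 and 4.35. Of the 10 cell cycle genes called, 8 were still called without the bone-rich libraries. Among red cell genes, HBE1 kept its call, at 6.64 and 5.79, while HBA1, HBAD, HBBA and SLC4A1 had 1.79, 2.40, 1.76 and 2.15 with all juveniles and 1.04, 1.76, 0.96 and 1.19 without the bone-rich ones, where adjusted p-values were 0.119 to 0.477. Whether these fold changes differed between the fits was not tested. The share of all called genes, in a list or not, that kept their call was not taken. The counts by list therefore have no background and are not compared. Over all lists, 47 genes were called, 36 of them were tested without the bone-rich libraries, and 17, COL1A1 included, were called in both. Of the hormone genes that went against bone, CGA had -1.87 ± 0.50 (SE), just short of the threshold (edgeR adjusted p = 0.0523), POMC had -0.49 ± 0.62 (adjusted p = 0.813) and TSHB had -0.07 ± 0.59 (adjusted p = 0.979).

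**Figure D5:**
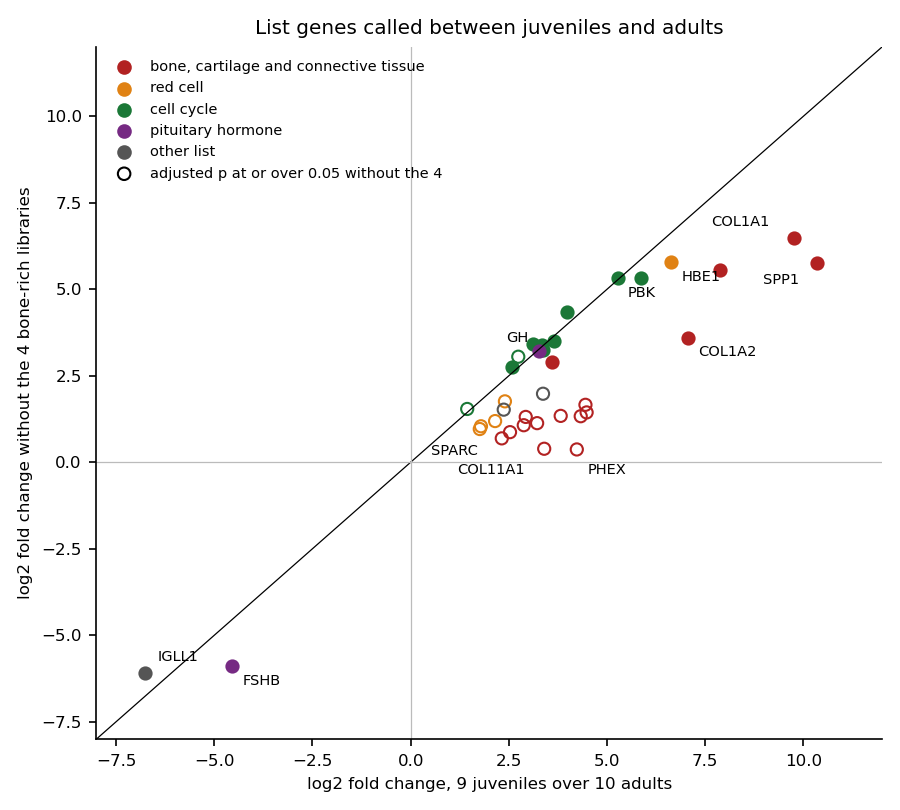
Log2 fold change of juveniles over adults for list genes called in the full comparison, with all 9 juveniles (horizontal axis) and without the 4 bone-rich libraries (vertical axis); each of the 36 points is a gene, open points had an adjusted p of 0.05 or more without those libraries, and the line marks equal values. PBK (5.27 and 5.33) and GH (3.28 and 3.22) lie near the line, and COL1A1 (9.76 and 6.48), SPP1 (10.34 and 5.75) and PHEX (4.23 and 0.37) lie below it.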

How the data were processed

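The authors deposited a table of transcript abundances for 19 libraries. Its values are expected counts: the authors called bases with guppy, trimmed and filtered reads with Porechop and Filtlong, aligned them to an NCBI Coturnix japonica genome (minimap2 in the submitters' processing notes) and estimated counts with Salmon. Tool versions and the annotation are not given in the sources used here. At least 99.3% of values in each library were whole. Here, counts of 63260 transcripts were summed over 19562 gene symbols, of which 11430 were found in the RefSeq quail annotation. None of the transcript IDs (0) was found there, so gene identities rest on symbols alone.

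CPM were scaled with TMM factors from edgeR 4.0.16 (R 4.3.3) over all 19 libraries. Genes with at least 20 counts over the 9 juveniles were described, and log2 differences used group means with a pseudocount of 1. A gene was without overlap when its lowest value in one set exceeded its highest value in the other. Labelled groups were compared with edgeR's quasi-likelihood test on counts rounded to whole numbers (filterByExpr, minimum count 10), with Benjamini-Hochberg adjustment over all genes tested at a threshold of 0.05. The age fit had photoperiod as a term. DESeq2 1.42.0 was an alternative. The fits were also run on simulated counts, which had the same makeup in every library apart from the genes set to differ. The libraries here differ in makeup, so nothing is read from that simulation. COL1A1 was compared by exact permutation.

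Named genes were the 12 largest differences without overlap in each direction, the 10 genes most like and most opposite to COL1A1, and members of the lists. The members and lists were chosen with earlier results of these data known. A count of 0 allows up to 3 counts, which covers counting error only. Near-identical counts within 5% over all libraries marked 76 symbols in 9 families as repeated. Genomic sequences were not analysed here, and a few genes of the lists are not reported here.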

Additional observations from a re-analysis of the deposited data

Results flagged for a closer look

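In 120 groups of libraries, formed by the main genes of the report in each labelled group of 4 or 5, 6 held a library far from the others by Dixon's test, where chance gives about 5% of groups. That is about the number chance gives, so the values are listed without being read as results. TNC had 254.9 CPM in juvenile 16L replicate 1, against 0 to 2.685 CPM in the other 16L juveniles. PTPRC had 8.614 CPM in juvenile 16L replicate 2, the worth of 1 count, against 0 CPM in the others. PER3 had 174.5 CPM in juvenile 16L replicate 3, against 0 to 3.678 CPM in the others.

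Among 8L juveniles, COL2A1 had 529.8 CPM in replicate 1, against 0 to 58.4 CPM in the others, and ACAN had 717.8 CPM in replicate 1, against 0 to 86.33 CPM. GHRHR had 875.8 CPM in replicate 2, against 22.85 to 227.7 CPM in the others.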

How the results depend on the processing

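With 5 libraries under 200000 counts among the 19, low genes could not be resolved in the small libraries, and the direction of the balance between higher and lower genes depended on scaling and membership. Against 123 higher and 90 lower genes without overlap, there were 76 and 175 with library totals, 79 and 167 without the genes of other tissues in the totals, and 67 and 45 with a filter of 100 counts. The 3 highest libraries against 6 gave 284 and 48, and the 5 highest against 4 gave 85 and 270. Alternatives chosen after seeing the data gave 324 and 456 without 8L replicates 1 and 5, 996 and 344 without 16L replicates 1 and 2, and 1253 and 1511 without libraries under 200000 counts. Leaving out 1 library gave 143 (8L replicate 3) to 357 (16L replicate 2) higher and 101 (8L replicate 2) to 340 (8L replicate 4) lower. With fewer libraries, fewer values have to be in order. The log2 difference of NACAD turned to 0.15 with the 5 highest against 4, and the cause was not tested.

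COL1A1 differed by 1.16 between 16L and 8L juveniles without 8L replicates 1 and 5, the 2 with the most COL1A1, against -0.92 with all 9, and leaving out 1 library gave -1.9 to -0.1. The photoperiod test called 0 genes under every alternative, the replicate block included. The age test called 140 genes, against 399 with DESeq2, 364 without the filter, and 86 (without adult 8L replicate 1) to 207 (without juvenile 16L replicate 2) when 1 library was left out. The replicate number as a block gave 98 age calls. Samples with the same number shared only that number, since their deviations from the group means correlated at -0.104 to 0.0947. Of the age log2 fold changes of single genes, 720 values kept their call and 108 lost it, with none reversed.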
